A study of Mus musculus with 40 samples.

Results

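The intestinal epithelium makes its own oxidants, and the 7 genes described here encode most of the machinery it uses: the dual oxidase Duox2 with its maturation factor Duoxa2, the inducible nitric oxide synthase Nos2, and the NADPH oxidase Nox1 with its organizer Noxo1, its activator Noxa1 and its membrane partner Cyba. They are 7 of 36155 genes that the array represents by at least 1 transcript cluster carrying that symbol alone, a transcript cluster being the unit into which the array groups its probes. Each member had 1 such cluster, so that no choice between clusters had to be made. Duox2, Duoxa2 and Noxa1 lie on chromosome 2, Cyba on chromosome 8, Nos2 on chromosome 11, Noxo1 on chromosome 17 and Nox1 on chromosome X. The genes were selected on results of these arrays, because Duox2 and Duoxa2 came to notice in the comparison of doxorubicin with saline in knockout mice at day 3. That comparison is therefore given as a description without a test for the 7 genes, and the comparisons that share its mice are named as such.

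RNA from the jejunum, a part of the small intestine, was measured in 40 female mice on Affymetrix Mouse Transcriptome Arrays with 1 array per mouse. The mice were Sftpd-/- (KO), which lack surfactant protein D, or their Sftpd+/+ (WT) littermates, all 10 to 12 weeks old and on a C57BL/6N background. Each had been given 1 intraperitoneal injection of doxorubicin at 20 mg/kg, a chemotherapeutic that damages the gut mucosa, or saline, and was sacrificed at day 3 or day 7. This gave 8 groups of 5 mice, named WT-NaCl3, WT-NaCl7, KO-NaCl3 and KO-NaCl7 for saline and WT-Dox3, WT-Dox7, KO-Dox3 and KO-Dox7 for doxorubicin. The study had more doxorubicin-treated mice and more saline KO mice than were put on arrays. How the 5 of those groups were chosen is not given in the sources used here. Some doxorubicin-treated mice of both genotypes had been terminated early because they lost too much weight.

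Duox2 and Nox1 are enzymes of the same family that pass electrons from NADPH across a membrane to oxygen. Duox2 releases hydrogen peroxide at the apical surface of the epithelium and leaves the endoplasmic reticulum only together with Duoxa2. Nox1 makes superoxide and works in a complex with Cyba, Noxo1 and Noxa1. Nos2 makes nitric oxide from arginine and is, like Duox2, known in the gut as a gene that microbes and cytokines induce. Colon is the usual site of Nox1, whereas Duox2 is known from both small and large intestine.

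The deposited values are on the log2 scale, where 1 unit means a doubling, and a level cannot be compared between genes because each has its own probes. The highest of 23 background probe sets read 6.99 (their mean was 3.45), and a signal below it is not clearly above background. The true size of a change to or from such a signal may exceed the measured one. Array medians lay between 4.38 and 4.66, and arrays within a group correlated at 0.9748 to 0.9946. Epithelial markers were bright in every group (the mean of 9 markers was at least 15.3 in each mouse), and 5 of 6 markers of ileum and colon averaged below the background maximum. Sftpd itself lay at 3.83 to 4.31 in all 40 mice, WT and KO alike, so that the array cannot check the genotype in this tissue. In whole tissue, fewer cells of a type and less RNA per cell cannot be told apart. Differences were tested with limma in 1 linear model over the 40 arrays, and p-values were corrected over 65956 clusters (Benjamini-Hochberg, threshold 0.05). "Rose" and "fell" are used only of differences that passed it.

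**Figure D1:**
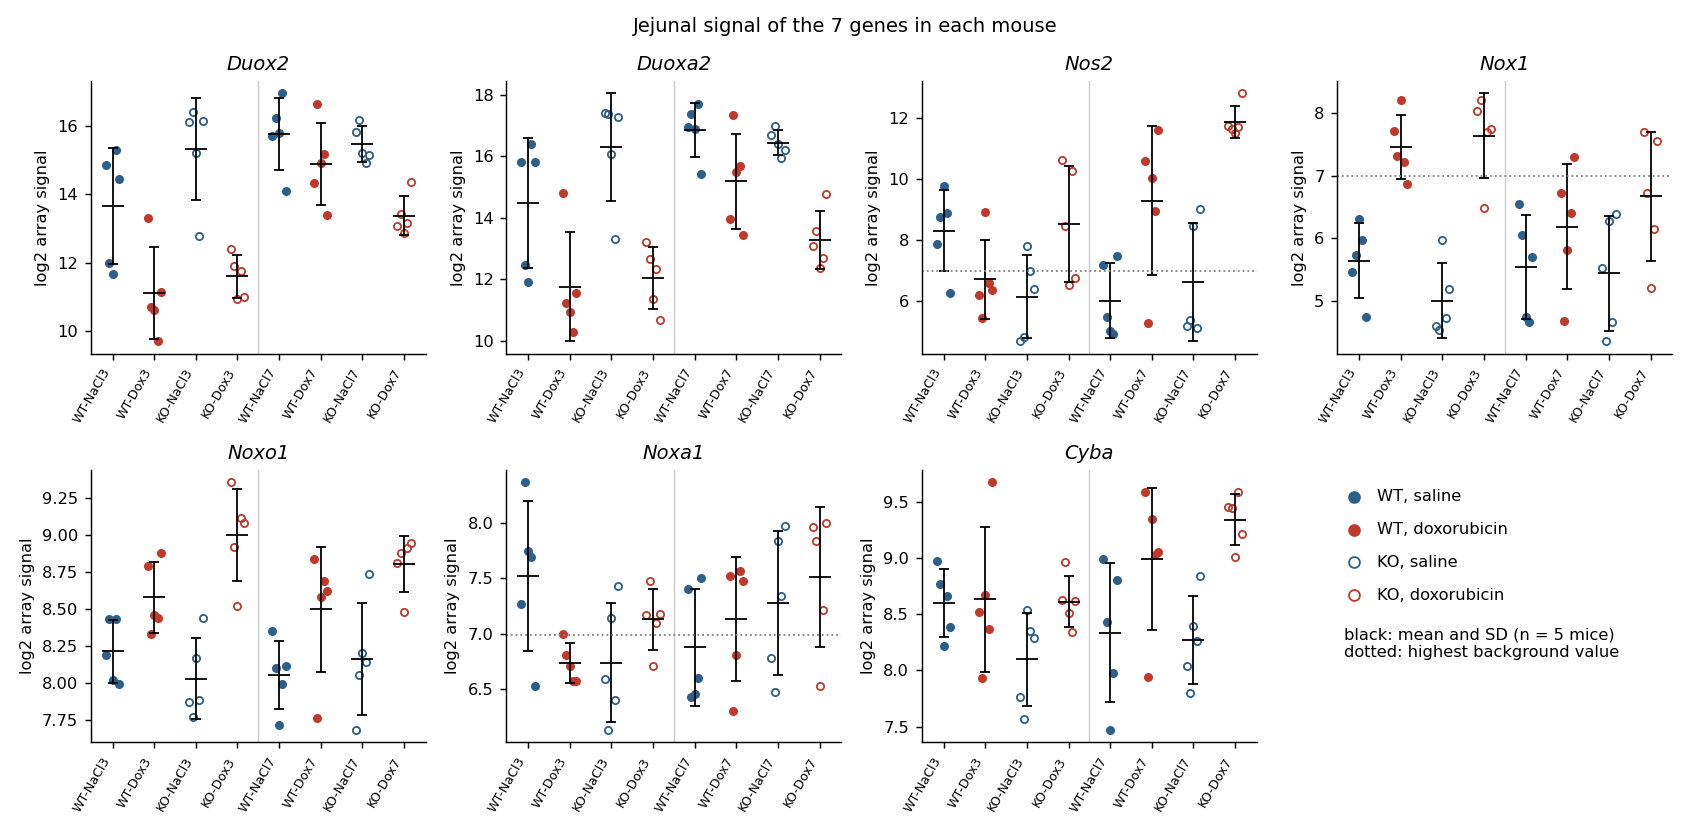
Deposited log2 signal (vertical axis) of each gene in each mouse of the 8 groups (horizontal axis), with filled symbols for WT, open symbols for KO, blue for saline and red for doxorubicin. Black marks are the mean and SD of 5 mice, and the dotted line is the highest background value of 6.99. Duox2 and Duoxa2 are lowest in WT-Dox3 and KO-Dox3, Nos2 is highest in KO-Dox7, and Nox1 in saline mice lies below the line in every mouse.

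Duox2 was bright in the saline jejunum and lower 3 days after doxorubicin in both genotypes. In WT-NaCl3 its signals were 14.87, 11.98, 11.67, 15.32 and 14.45, a mean of 13.66 ± 1.70 (SD, n = 5). In WT-Dox3 they were 13.32, 10.70, 10.62, 9.69 and 11.14, a mean of 11.09 ± 1.35. Both groups overlapped, since mice 44 and 46 of WT-NaCl3 read 11.98 and 11.67 while mouse 144 of WT-Dox3 read 13.32. Duox2 fell by 2.56 ± 0.69 (SE; a 5.91-fold difference, adjusted p = 0.022, limma). The call was not stable: leaving out 1 of 5 single mice (mice 14, 170 and 190 of WT-NaCl3, mice 192 and 232 of WT-Dox3) gave adjusted p between 0.056 and 0.097, and a fit of only both compared groups gave 0.18.

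Duoxa2 followed the same mice. Its signals were 15.80, 12.46, 11.93, 16.41 and 15.80 in WT-NaCl3 (mean 14.48 ± 2.11) and 14.82, 11.23, 10.94, 10.28 and 11.56 in WT-Dox3 (mean 11.77 ± 1.77). The same mice stood apart as for Duox2, with mice 44 and 46 low among the saline mice and mouse 144 high among those given doxorubicin. The difference of -2.71 ± 0.85 did not pass (adjusted p = 0.058), and it passed without mouse 144 (-3.48, adjusted p = 0.0083), without mouse 44 (adjusted p = 0.027) or without mouse 46 (adjusted p = 0.017). It also passed under 4 of the 10 other settings, with adjusted p from 0.034 to 0.29 over the 10.

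In KO mice at day 3, the comparison by which the pair came to notice, the saline mice read higher and the gap was wider. Duox2 signals were 16.12, 16.41, 15.23, 12.78 and 16.17 in KO-NaCl3 (mean 15.34 ± 1.50) and 12.40, 11.90, 10.93, 11.76 and 10.98 in KO-Dox3 (mean 11.59 ± 0.63). Duoxa2 signals were 17.42, 17.36, 16.08, 13.32 and 17.27 against 13.20, 12.66, 11.37, 12.35 and 10.67. No mouse of KO-Dox3 reached a mouse of KO-NaCl3 for either gene, although mouse 254 of KO-NaCl3, at 12.78 and 13.32, came close to mouse 2 of KO-Dox3, at 12.40 and 13.20. The differences were -3.75 ± 0.69 for Duox2 (13.4-fold) and -4.24 ± 0.85 for Duoxa2 (18.9-fold). In this comparison 4 of the 7 genes had groups that did not overlap (Duox2, Duoxa2, Nox1 and Noxo1), against 8.00% of all clusters. Nothing is read from that count, since the comparison was used by the choice of genes.

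In WT mice the pair was higher at day 7 than at day 3 after doxorubicin, and saline mice also read higher at day 7. Duox2 signals were 15.72, 16.26, 15.82, 16.97 and 14.09 in WT-NaCl7 (mean 15.77 ± 1.06) and 14.33, 16.66, 14.92, 15.18 and 13.40 in WT-Dox7 (mean 14.90 ± 1.20). Duoxa2 signals were 16.94, 17.36, 16.88, 17.70 and 15.41 against 13.95, 17.35, 15.48, 15.69 and 13.45. The groups overlapped for both genes, with 4 of 5 WT-Dox7 mice inside the range of the saline mice for Duox2 and 3 of 5 for Duoxa2. The differences from saline were -0.87 ± 0.69 for Duox2 (adjusted p = 0.81) and -1.67 ± 0.85 for Duoxa2 (adjusted p = 0.61). Compared with WT-Dox3, WT-Dox7 was higher by 3.80 ± 0.69 for Duox2 (14.0-fold, adjusted p = 7.7e-04) and by 3.42 ± 0.85 for Duoxa2 (10.7-fold, adjusted p = 0.016). These 2 of the 7 genes rose between the days, where 3.03% of all clusters passed in either direction. Relative to the saline mice of the same day the change was smaller: the response to doxorubicin at day 7 minus that at day 3, a comparison added after the values were seen, was 1.69 ± 0.98 for Duox2 (adjusted p = 0.63) and 1.04 ± 1.20 for Duoxa2 (adjusted p = 0.89), and neither passed. The Duoxa2 call was lost without mouse 232 of WT-Dox3 (adjusted p = 0.069), without mouse 102 of WT-Dox7 (adjusted p = 0.070) and in a fit of only both groups (adjusted p = 0.11).

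In KO mice at day 7 the pair read lower after doxorubicin than after saline, and the groups did not overlap. Duox2 signals were 15.84, 16.20, 15.22, 14.94 and 15.15 in KO-NaCl7 (mean 15.47 ± 0.53) and 13.07, 13.43, 12.87, 13.17 and 14.36 in KO-Dox7 (mean 13.38 ± 0.58). Duoxa2 signals were 16.68, 16.97, 16.41, 15.93 and 16.19 against 13.08, 13.57, 12.36, 12.68 and 14.76. The highest doxorubicin mouse, mouse 42300, stayed below the lowest saline mouse for both genes. The differences of -2.09 ± 0.69 (Duox2, adjusted p = 0.16) and -3.15 ± 0.85 (Duoxa2, adjusted p = 0.063) nevertheless did not pass over all clusters. Duoxa2 passed without mouse 42300 (adjusted p = 0.047) and under 6 of the 10 other settings, with adjusted p from 0.0074 to 0.092 over the 10, and Duox2 under 3 of them, with 0.017 to 0.23.

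KO-Dox7 also lay above KO-Dox3, by 1.79 ± 0.69 for Duox2 without overlap (adjusted p = 0.14, and 0.011 in a fit of only both groups) and by 1.24 ± 0.85 for Duoxa2 (adjusted p = 0.53). The response at day 7 minus that at day 3 was 1.66 ± 0.98 for Duox2 and 1.09 ± 1.20 for Duoxa2 in KO mice (adjusted p = 0.38 and 0.67), beside 1.69 and 1.04 in WT mice. These KO values use the day 3 mice by which the genes were chosen. The responses of the genotypes at day 7 differed by -1.22 ± 0.98 for Duox2 and by -1.47 ± 1.20 for Duoxa2 (adjusted p = 0.92 for each), so that a difference between WT and KO mice was not detected.

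**Figure D2:**
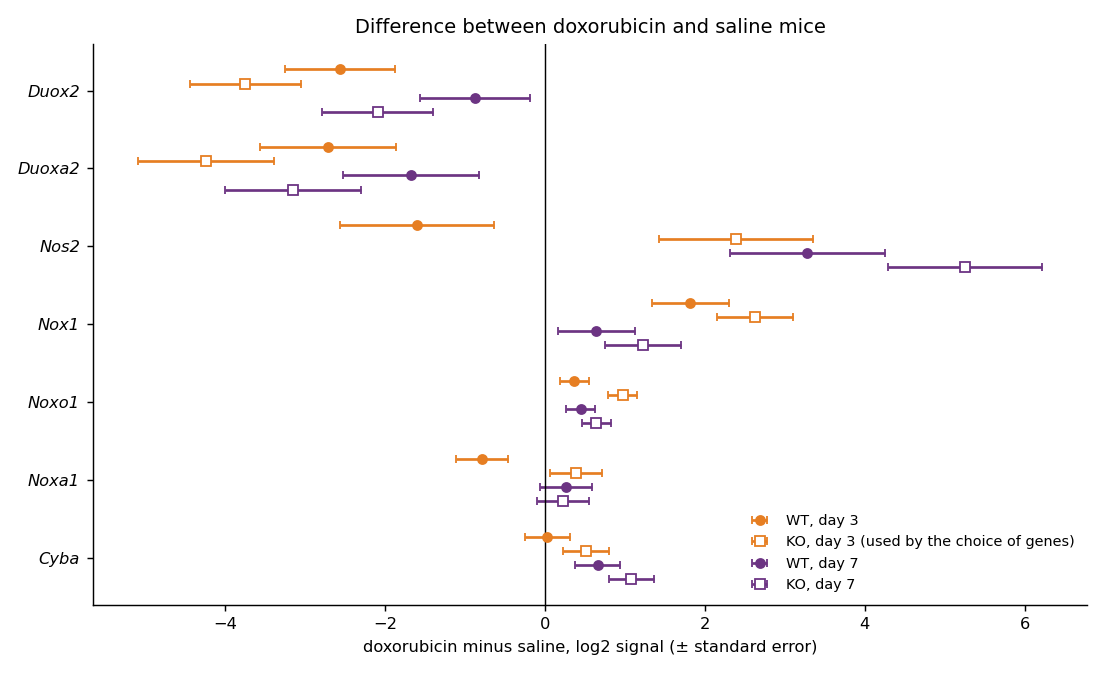
Difference between doxorubicin and saline mice in log2 signal (horizontal axis) for each gene (vertical axis), in WT (filled circles) and KO mice (open squares) at day 3 (orange) and day 7 (purple). Bars are standard errors of the linear model over 40 arrays. All Duox2 and Duoxa2 differences lie below 0, from -0.87 to -4.24, whereas Nos2 runs from -1.60 in WT mice at day 3 to 5.25 in KO mice at day 7.

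Genotype and day were also compared within the saline mice, which received no drug. Duox2 was higher in KO-NaCl3 than in WT-NaCl3 by 1.68 ± 0.69 (adjusted p = 0.45) and Duoxa2 by 1.81 ± 0.85 (adjusted p = 0.50), and WT-NaCl7 exceeded WT-NaCl3 by 2.11 ± 0.69 (adjusted p = 0.58) and 2.38 ± 0.85 (adjusted p = 0.64). All of these involve WT-NaCl3, in which mice 44 and 46 read below every other saline mouse for both genes. KO-NaCl3 is one of the groups by which the genes were chosen. At day 7 the saline genotypes differed by -0.30 ± 0.69 (Duox2) and -0.42 ± 0.85 (Duoxa2), and with the spread of array signals as a covariate by 0.76 and 0.68. Among the 8 group means of Duox2, WT-NaCl7, KO-NaCl7, KO-NaCl3 and WT-Dox7 followed each other by steps smaller than the pooled SD of 1.15. WT-NaCl3 then came 1.24 lower, KO-Dox7 0.28 below that, and KO-Dox3 1.79 lower still, with WT-Dox3 last. The ranges of neighbouring groups overlapped at every step except that from KO-Dox7 to KO-Dox3. Duoxa2 had the same order, with no step between neighbours above its pooled SD of 1.41.

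Duox2 and Duoxa2 are transcribed away from each other on chromosome 2, and their starts lie 673 bases apart in the RefSeq promoter table (GRCm38.p6). The RefSeq gene model of Duox2 reaches further, to 160 bases from the start of Duoxa2. Because the signals of both genes moved together, the 300 bases around each start are shown, with 250 bases before and 50 after it and each read 5′ to 3′ on its own strand. Capitals mark matches to 2 of the motifs searched, TGANTCA and TATAAA (the TATA box). TGANTCA is the AP-1 motif loosened to any base at its centre, so that a match is not necessarily an AP-1 consensus site.
Duox2, chr2:122298178-122298477, minus strand: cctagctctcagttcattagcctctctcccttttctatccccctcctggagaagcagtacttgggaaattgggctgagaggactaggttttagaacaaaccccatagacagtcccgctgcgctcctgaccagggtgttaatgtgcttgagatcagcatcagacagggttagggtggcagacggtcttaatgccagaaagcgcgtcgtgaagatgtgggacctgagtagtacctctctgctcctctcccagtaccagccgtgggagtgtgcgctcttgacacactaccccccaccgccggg
Duoxa2, chr2:122298650-122298949, plus strand: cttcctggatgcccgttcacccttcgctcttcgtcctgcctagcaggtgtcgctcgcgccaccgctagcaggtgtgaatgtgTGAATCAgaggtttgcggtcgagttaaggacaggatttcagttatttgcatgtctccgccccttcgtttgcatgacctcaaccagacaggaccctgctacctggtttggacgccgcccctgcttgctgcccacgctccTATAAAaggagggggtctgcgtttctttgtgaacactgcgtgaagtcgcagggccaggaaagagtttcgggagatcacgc
The Duoxa2 window held TGAATCA beginning 168 bases before its start and TATAAA 30 bases before it, and the Duox2 window held neither. Of 32851 RefSeq windows of this length, 7.81% held TGANTCA and 13.6% held TATAAA on either strand. TTCNNNGAA, which STAT factors bind, was in neither window, compared with 8.30% of all windows. Both matches in the Duoxa2 window lay apart, and a match is only a match of letters.

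**Figure D3:**
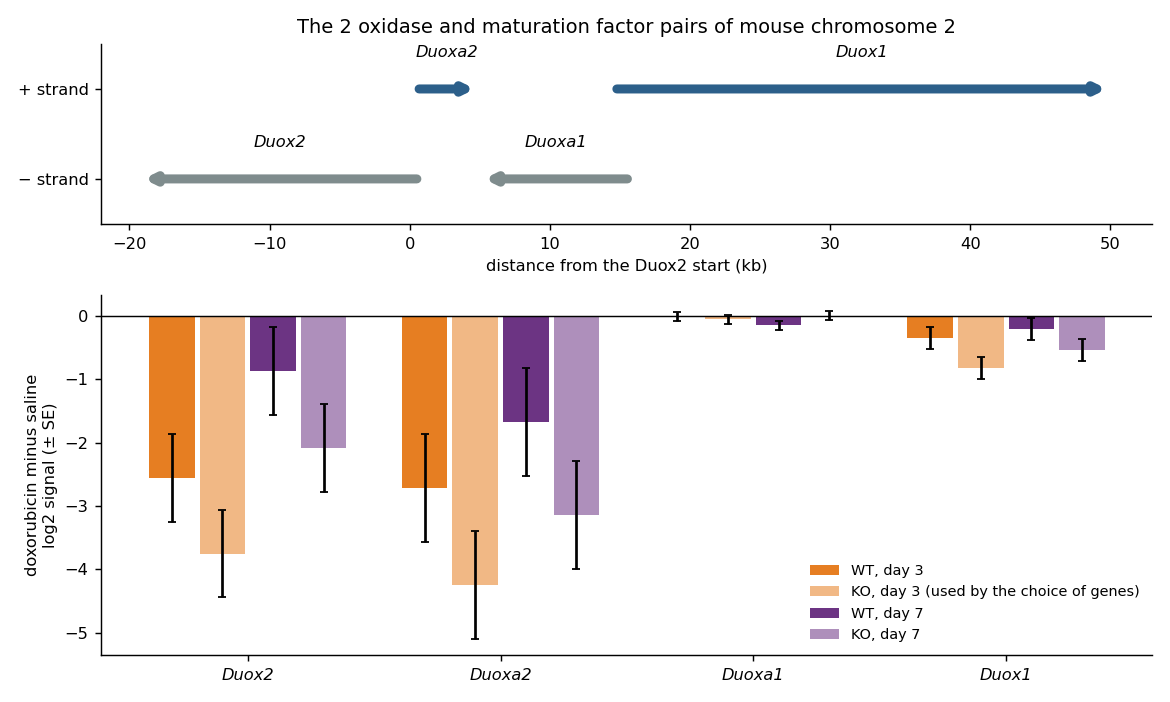
Above, the RefSeq gene models of Duox2, Duoxa2, Duoxa1 and Duox1 on mouse chromosome 2, drawn to scale by distance from the Duox2 start in kb, with arrows in the direction of transcription. Below, the difference between doxorubicin and saline mice in log2 signal with its standard error in 4 comparisons, where the bars of Duox2 and Duoxa2 reach -3.75 and -4.24 in KO mice at day 3 and those of Duoxa1 stay within -0.15 and 0.

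The neighbouring pair, Duox1 and its factor Duoxa1, lies next to Duoxa2 on the same chromosome and averaged 5.03 and 4.38, below the background maximum. Duox1 fell by 0.82 ± 0.17 in KO mice at day 3 (adjusted p = 9.25e-04, groups overlapping) and did not pass in the other doxorubicin comparisons, where it differed by -0.35, -0.21 and -0.54. Duoxa1 passed in none, with differences between -0.15 and -0.004.

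Across all 40 mice Duox2 and Duoxa2 had a Pearson correlation of 0.980, and of 0.977 over deviations from the group means, so that mice of 1 group also ranked alike. The points share arrays and normalization.

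**Figure D4:**
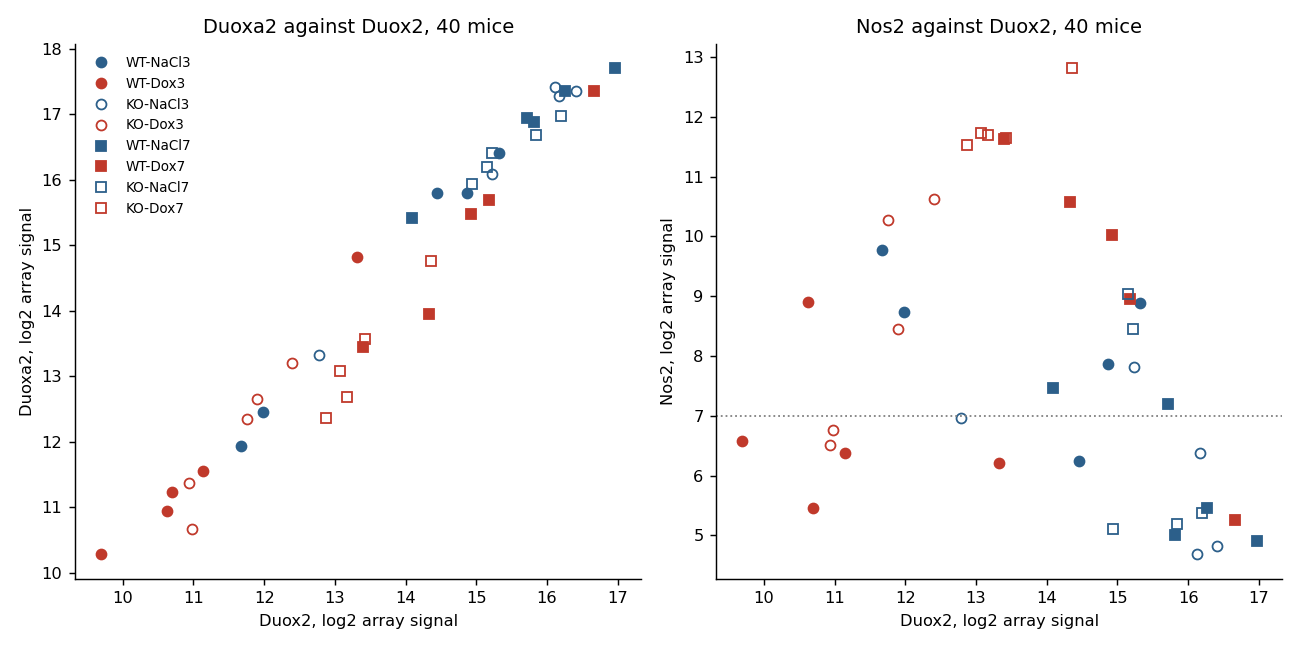
Log2 signal of Duoxa2 (left) and Nos2 (right) against that of Duox2 in 40 mice, with circles for day 3, squares for day 7, filled symbols for WT, open symbols for KO, blue for saline and red for doxorubicin. Duoxa2 follows Duox2 closely (r = 0.980). The highest Nos2 signals, 11.52 to 12.81 in KO-Dox7 and 11.62 in mouse 42263 of WT-Dox7, occur at intermediate Duox2. The dotted line is the highest background value of 6.99.

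Among 7370 named genes with a mean signal above the background maximum, those whose pattern over the 40 mice was most like Duox2 were the calpain Capn13 (r = 0.925), the gasdermins Gsdmc3 (0.908) and Gsdmc2 (0.906), the N-acylethanolamine hydrolase Naaa (0.905) and the glutamate transporter Slc1a1 (0.902). For Duoxa2 they were Capn13 (0.922), the phospholipase Pla2g4c (0.916), Gsdmc3 (0.911), Gsdmc2 (0.907) and Gsdmc4 (0.903). Over deviations from group means these correlations were between 0.703 and 0.870. The Gsdmc genes are near-identical copies, so that their signals cannot be kept apart with certainty.

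Markers of smooth muscle moved with the pair. The mean of 4 such markers (Myh11, Acta2, Des and Cnn1) correlated with Duox2 at 0.798 and with Duoxa2 at 0.775 over the 40 mice. It ranged from 13.07 to 14.01 in WT-NaCl3 and 12.60 to 13.58 in WT-Dox3, and from 13.22 to 14.47 in KO-NaCl3 and 12.43 to 13.26 in KO-Dox3. Of the 4 markers, 3 fell in KO mice at day 3 (Myh11, Des and Cnn1) and 0 in WT mice at day 3 or in either genotype at day 7. Their part in the Duox2 result was not tested. The mean of 9 epithelial markers, in contrast, correlated with Duox2 at 0.172. The means of 7 macrophage and 6 neutrophil markers correlated with Duox2 at -0.495 and -0.553 and with Duoxa2 at -0.510 and -0.506.

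Nos2 had a different course. It did not pass at day 3 in WT mice and was high at day 7 after doxorubicin. In KO-NaCl7 its signals were 5.19, 5.37, 8.45, 5.10 and 9.03 (mean 6.63 ± 1.94) and in KO-Dox7 11.73, 11.64, 11.52, 11.70 and 12.81 (mean 11.88 ± 0.53). Every mouse of KO-Dox7 lay above every mouse of KO-NaCl7, of which 3 were below the background maximum. Nos2 rose by 5.25 ± 0.96, a measured 38.1-fold difference, with adjusted p = 0.0039. It passed with each mouse left out (adjusted p from 0.0015 to 0.024) and under each of the 10 other settings.

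In WT mice at day 7, 4 of 5 doxorubicin mice had high Nos2. The signals were 7.19, 5.46, 5.01, 4.91 and 7.47 in WT-NaCl7 (mean 6.01 ± 1.23) and 10.58, 5.26, 10.03, 8.95 and 11.62 in WT-Dox7 (mean 9.29 ± 2.45). Mouse 102 read 5.26 and lay among the saline mice, while the other 4 lay above all of them. The difference of 3.28 ± 0.96 (9.71-fold) did not pass (adjusted p = 0.26), and without mouse 102 it was 4.29 with adjusted p = 0.016. The difference between the genotypes' responses at day 7 was 1.97 ± 1.36 (adjusted p = 0.90), so that a difference between KO and WT mice was not detected.

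At day 3 the Nos2 signals were widely spread. They were 7.86, 8.74, 9.77, 8.89 and 6.25 in WT-NaCl3 (mean 8.30 ± 1.33) and 6.21, 5.45, 8.91, 6.58 and 6.37 in WT-Dox3 (mean 6.70 ± 1.30). WT-NaCl3 was the saline group with the highest Nos2, and its 2 mice with the lowest Duox2, mice 44 and 46, read 8.74 and 9.77. The difference in WT mice was -1.60 ± 0.96 (adjusted p = 0.47). In KO mice the signals were 4.68, 4.82, 7.81, 6.97 and 6.38 in KO-NaCl3 and 10.62, 8.45, 6.51, 10.28 and 6.76 in KO-Dox3, a difference of 2.39 ± 0.96 given without a test. The groups overlapped, with 2 of the KO-Dox3 mice at saline levels. The responses of the genotypes differed by 3.99 ± 1.36, which did not pass (adjusted p = 0.75) and shares the day 3 KO mice by which the genes were chosen.

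From day 3 to day 7 after doxorubicin, Nos2 rose in KO mice by 3.36 ± 0.96 (10.2-fold, adjusted p = 0.027), and it was the only one of the 7 genes to pass there, where 6.50% of all clusters passed. KO-Dox3 is one of the groups by which the genes were chosen. The call was lost without mouse 162, 196 or 248 of KO-Dox3 or mouse 42300 of KO-Dox7 (adjusted p from 0.051 to 0.094). In WT mice the change was 2.58 ± 0.96 (adjusted p = 0.18, and 0.019 without mouse 102). The response to doxorubicin at day 7 minus that at day 3 was 4.88 ± 1.36 in WT mice (adjusted p = 0.082) and 2.86 ± 1.36 in KO mice (adjusted p = 0.26). In WT mice it passed without mouse 102 of WT-Dox7 (adjusted p = 0.0078) or mouse 192 of WT-Dox3 (adjusted p = 0.048). Of the 7 genes 0 passed in either genotype, with 2 in each at an unadjusted p under 0.05. Of all clusters 0.841% (WT) and 4.93% (KO) passed, and at an unadjusted p under 0.05 the shares were 9.91% and 18.3%.

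The 5 genes most like Nos2 over the 40 mice were Zc3h12a (r = 0.907), which encodes a ribonuclease that degrades inflammatory transcripts, the epithelial kinase Ptk6 (0.848), the apoptosome component Apaf1 (0.840), the signal transducer Smad4 (0.836) and Rassf4 (0.830). Over deviations from group means these correlations were between 0.629 (Smad4) and 0.854 (Zc3h12a). Nos2 and Duox2 correlated at -0.310 over all mice, -0.660 over the 20 saline mice and 0.315 over the 20 doxorubicin mice. Over the saline mice, those with low Duox2 thus tended to have high Nos2. Differences between groups are part of that value, since WT-NaCl3 had the lowest Duox2 mean (13.66) and the highest Nos2 mean (8.30) among the saline groups. Over deviations from the group means of all 40 mice the correlation was -0.388.

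Nox1 was the member that rose in WT mice at day 3. Its signals were 5.46, 5.74, 6.31, 5.97 and 4.74 in WT-NaCl3 (mean 5.64 ± 0.59) and 7.71, 7.32, 8.20, 7.21 and 6.87 in WT-Dox3 (mean 7.46 ± 0.51). Every doxorubicin mouse lay above every saline mouse, all 5 saline mice were below the background maximum, and 4 of 5 doxorubicin mice were above it. Nox1 rose by 1.82 ± 0.48 (3.53-fold, adjusted p = 0.018), so that the true difference may be larger. Without mouse 190 of WT-NaCl3 or mouse 192 of WT-Dox3 the call was lost (adjusted p = 0.060 and 0.063). In KO mice at day 3 the signals were 4.60, 4.54, 5.97, 4.73 and 5.19 against 8.03, 8.21, 6.48, 7.70 and 7.75, again without overlap, a difference of 2.63 ± 0.48 given without a test.

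At day 7 the Nox1 groups overlapped, and the differences from saline did not pass in either genotype. Signals were 6.73, 4.68, 5.81, 6.41 and 7.30 in WT-Dox7 and 7.70, 6.73, 5.21, 6.15 and 7.55 in KO-Dox7, against 4.66 to 6.55 in WT-NaCl7 and 4.36 to 6.39 in KO-NaCl7. The differences from saline were 0.64 ± 0.48 (adjusted p = 0.79) and 1.23 ± 0.48 (adjusted p = 0.27). Between the days after doxorubicin Nox1 differed by -1.28 ± 0.48 in WT (adjusted p = 0.18) and -0.97 ± 0.48 in KO mice (adjusted p = 0.30). The KO value uses KO-Dox3, one of the groups by which the genes were chosen. The 5 genes most like Nox1 were the aldo-keto reductase Akr1b8 (r = 0.874), the carbonic anhydrase Car12 (0.871), Utp20 (0.868) and Utp15 (0.865), which act in ribosome assembly, and Lacc1 (0.865). Over deviations from group means these correlations were between 0.649 (Lacc1) and 0.802 (Utp15).

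Noxo1, which holds the Nox1 complex at the membrane, moved in the same direction by smaller amounts. Its signals ranged from 7.99 to 8.43 in WT-NaCl3 and 8.33 to 8.88 in WT-Dox3, and from 7.77 to 8.44 in KO-NaCl3 and 8.52 to 9.36 in KO-Dox3. They ranged from 7.71 to 8.35 in WT-NaCl7, 7.76 to 8.84 in WT-Dox7, 7.68 to 8.74 in KO-NaCl7 and 8.48 to 8.95 in KO-Dox7. Only the KO groups at day 3 did not overlap. The differences were 0.37 ± 0.18 (WT, day 3, adjusted p = 0.33), 0.97 ± 0.18 (KO, day 3, no test), 0.45 ± 0.18 (WT, day 7, adjusted p = 0.47) and 0.64 ± 0.18 (KO, day 7, adjusted p = 0.079). The last passed without mouse 42295 of KO-NaCl7 (adjusted p = 0.023). It also passed with only bright clusters, with array weights and with the spread of array signals as a covariate. Over the 10 other settings its adjusted p ran from 0.0067 to 0.20.

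Cyba, which stabilises Nox1 and also the phagocyte oxidase, showed its widest gap in KO mice at day 7. Its signals were 8.04, 7.80, 8.40, 8.26 and 8.84 in KO-NaCl7 (mean 8.27 ± 0.39) and 9.46, 9.45, 9.01, 9.59 and 9.22 in KO-Dox7 (mean 9.35 ± 0.23). The groups did not overlap, and the difference of 1.08 ± 0.28 (2.11-fold) missed the threshold at adjusted p = 0.054. It passed without mouse 42295 of KO-NaCl7 (adjusted p = 0.032) and under 6 of the 10 other settings, whose adjusted p ran from 0.0035 to 0.090. In WT mice the differences were 0.03 ± 0.28 at day 3 and 0.66 ± 0.28 at day 7 (adjusted p = 0.98 and 0.50, with the sign at day 3 depending on the processing), and in KO mice at day 3 the difference was 0.51 ± 0.28.

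Noxa1, the activator of the Nox1 complex, passed in none of the comparisons tested. Its group means lay between 6.73 (WT-Dox3) and 7.52 (WT-NaCl3), close to the background maximum. The difference between doxorubicin and saline was -0.79 ± 0.32 in WT mice at day 3 (adjusted p = 0.20), 0.39 ± 0.32 in KO mice at day 3, 0.26 ± 0.32 in WT mice at day 7 and 0.23 ± 0.32 in KO mice at day 7 (adjusted p = 0.91 and 0.83). Over deviations from group means Nox1 correlated with Noxa1 at 0.780, with Nos2 at 0.743 and with Noxo1 at 0.602. Nos2 correlated with Cyba at 0.545. Mice high in one of these genes thus tended to be high in the others of their group, on arrays that share their normalization.

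Markers of macrophages, cells that can also express Nos2 and Cyba, were among those that moved with these genes. The mean of 7 macrophage markers correlated with Noxo1 at 0.780, with Nox1 at 0.765, with Cyba at 0.677 and with Nos2 at 0.470 over the 40 mice. Smooth muscle markers ran the other way, at -0.691 with Nox1 and -0.557 with Noxo1, whereas neutrophil markers correlated with these genes at 0.504 and 0.457 and goblet cell markers at 0.422 and 0.628. The macrophage mean ranged from 6.66 to 7.37 in WT-NaCl3 and 7.34 to 8.72 in WT-Dox3, and from 6.33 to 7.20 in KO-NaCl3 and 7.30 to 7.78 in KO-Dox3. At day 7 it ranged from 6.65 to 7.17 in WT-NaCl7 and 6.71 to 7.86 in WT-Dox7, and from 6.74 to 7.30 in KO-NaCl7 and 6.59 to 8.17 in KO-Dox7. Of the 7 markers, 2 rose in WT mice at day 3 (Cd68 by 1.40 and Mrc1 by 1.12), 3 in KO mice at day 3 (those and Itgam) and 0 in either genotype at day 7. All 6 neutrophil markers rose in WT mice at day 3, led by S100a8 (3.20) and S100a9 (2.15), although each averaged below the background maximum over the 40 mice. In KO mice at day 3, 1 of the 6 rose (Mmp8 by 0.58 ± 0.14), and S100a8 and S100a9 differed by 1.40 and 1.01 (adjusted p = 0.099 and 0.16). The mean of the 6 markers ranged from 4.517 to 4.695 in WT-NaCl3 and 4.83 to 7.89 in WT-Dox3 (median 5.73). It ranged from 4.43 to 4.58 in KO-NaCl3 and 4.73 to 5.54 in KO-Dox3 (median 5.29). The ranges of WT-Dox3 and KO-Dox3 thus overlapped. At day 7, 0 of the 6 passed in either genotype. The part of these cells in the results was not tested.

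Counted over the 7 genes, WT mice at day 3 had 1 that rose (Nox1) and 1 that fell (Duox2), where 2.60% of all clusters rose and 2.13% fell, and 1 without overlap between groups, against 4.02%. WT mice at day 7 had 0 that passed and 0 without overlap, where 0.0106% rose, 0.00758% fell and 1.44% did not overlap. At an unadjusted p under 0.05 there were 3 (Nos2, Noxo1 and Cyba) against 8.51% of all clusters. KO mice at day 7 had 1 that rose (Nos2) and 0 that fell, where 0.318% rose and 0.602% fell, and 4 without overlap (Duox2, Duoxa2, Nos2 and Cyba), against 3.36%.

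No difference between genotypes passed for any of the 7 genes. In saline mice at day 3, 0 passed (0.0258% of all clusters did) and 4 had an unadjusted p under 0.05 (Duox2, Duoxa2, Nos2 and Noxa1), against 9.50%. After doxorubicin at day 3, 0 passed (0.0106%) and 1 had an unadjusted p under 0.05 (Noxo1), against 8.43%. In saline mice at day 7, 0 passed (0.0773%) and 0 had an unadjusted p under 0.05, against 16.7%. After doxorubicin at day 7, 0 passed (0.00606%) and 3 had an unadjusted p under 0.05, against 4.26%: Nos2 was higher in KO mice by 2.59 ± 0.96, and Duox2 and Duoxa2 differed by -1.52 ± 0.69 and -1.89 ± 0.85 (adjusted p = 0.999 for each).

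The interaction of genotype with doxorubicin passed for 0 of the 7 genes on either day, as for 0% of all clusters on both days. At an unadjusted p under 0.05 there were 3 at day 3 (Nos2, Noxo1 and Noxa1), against 6.49% of all clusters, and 0 at day 7, against 6.06%. The day 3 comparisons of genotypes share the KO mice by which the genes were chosen. Between the days in saline mice 0 of the 7 passed in either genotype, as for 0% of all clusters in both. At an unadjusted p under 0.05 there were 3 in WT mice (Duox2, Duoxa2 and Nos2), against 6.26% of all clusters, and 0 in KO mice, against 7.06%. The comparison between the days in saline KO mice shares the KO-NaCl3 mice by which the genes were chosen.

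Around these enzymes lie genes that feed, remove or control their products, taken from lists chosen for their known roles. Counts in these lists and in the marker lists stand beside the shares of all clusters. In WT mice 2.60% rose and 2.13% fell at day 3, and 0.0106% and 0.00758% at day 7. In KO mice 5.66% rose and 3.68% fell at day 3, and 0.318% and 0.602% at day 7. Of 18 measured genes of nitric oxide synthesis and its arginine and cofactor supply, 2 rose and 3 fell in WT mice at day 3 and 3 rose and 2 fell in KO mice at day 3, where 5.66% of all clusters rose and 3.68% fell. At day 7, 0 passed in WT mice and 1 rose in KO mice. Ddah1, which degrades the methylarginines that inhibit nitric oxide synthases, rose by 2.99 ± 0.38 in WT mice at day 3 (adjusted p = 2.8e-06), by 3.70 ± 0.38 in KO mice at day 3 and by 2.56 ± 0.38 in KO mice at day 7 (adjusted p = 5.1e-04). Arg2, an arginase that uses the same substrate as Nos2, fell by 2.39 ± 0.46 (WT) and fell by 2.46 ± 0.46 (KO) at day 3. The cofactor enzymes Qdpr (both genotypes) and Pts (WT mice) fell at day 3 as well (Qdpr fell by 0.40 in WT and fell by 0.42 in KO mice, and Pts fell by 0.52), and Arg1 rose by 0.48 in WT and 0.33 in KO mice. In WT mice at day 3 Arg1 averaged 4.27 after saline and 4.75 after doxorubicin, both below the background maximum. The median difference of the list was -0.05 in WT and -0.09 in KO mice at day 3, beside 0.00 and -0.04 over all clusters.

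Of 21 measured genes that remove peroxide and superoxide, 3 rose and 0 fell in WT mice at day 3, 4 rose and 2 fell in KO mice at day 3, and 0 passed at day 7 in either genotype. The secreted glutathione peroxidase Gpx3 rose by 1.22 ± 0.29 and 1.62 ± 0.29, the peroxiredoxin Prdx6 by 0.93 ± 0.24 and 1.52 ± 0.24, and the thioredoxin reductase Txnrd1 by 0.47 ± 0.13 and 0.62 ± 0.13, in WT and KO mice respectively. In KO mice catalase (Cat) fell by 1.12 ± 0.28 and the mitochondrial superoxide dismutase Sod2 fell by 0.36 ± 0.09. List medians were between -0.20 and -0.01 in the 4 comparisons. Of 10 other NADPH oxidase genes, Duox1 fell in KO mice at day 3 and Rac2, a GTPase of the phagocyte oxidase, fell by 1.42 ± 0.32 in KO mice at day 7 (adjusted p = 0.021), and the other genes of that list did not pass in any of the 4 comparisons.

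**Figure D5:**
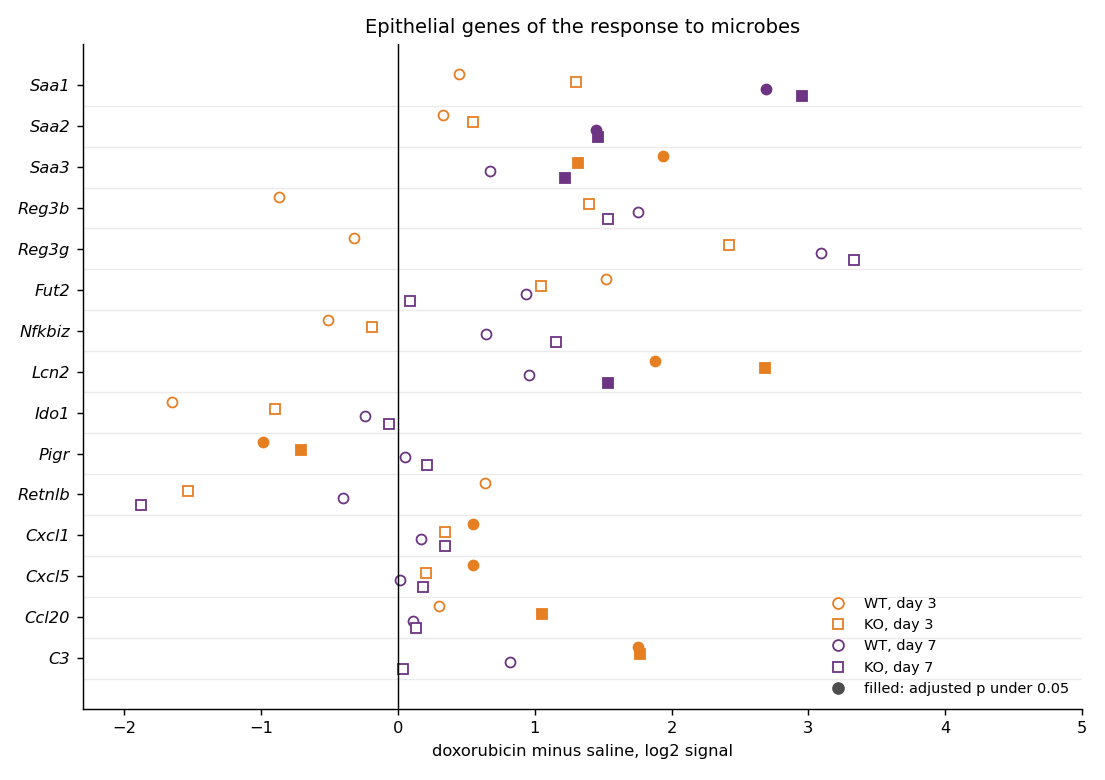
Difference between doxorubicin and saline mice in log2 signal (horizontal axis) for 15 epithelial genes of the response to microbes (vertical axis), in WT (circles) and KO mice (squares) at day 3 (orange) and day 7 (purple), with filled symbols where the adjusted p was under 0.05. Saa1 and Saa2 pass only at day 7, Pigr lies below 0 at day 3, and Lcn2 passes in 3 of the 4 comparisons.

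Duox2 and Nos2 are known to respond to microbes together with other epithelial genes, and 15 of these were measured. In WT mice 5 rose and 1 fell at day 3 and 2 rose at day 7, and in KO mice 4 rose and 1 fell at day 3 and 4 rose at day 7. The lipocalin Lcn2 rose by 1.88 ± 0.34 (WT, day 3), 2.68 ± 0.34 (KO, day 3) and 1.54 ± 0.34 (KO, day 7). In WT mice at day 3 Lcn2 averaged 5.108 after saline and 6.988 after doxorubicin, both below the background maximum of 6.99. The serum amyloid genes Saa1 and Saa2 rose at day 7, by 2.69 ± 0.50 and 1.45 ± 0.26 in WT mice and 2.96 ± 0.50 and 1.46 ± 0.26 in KO mice, and their sequences are alike, so that the probes may not separate them. In WT mice at day 7 Saa2 averaged 4.40 after saline and 5.85 after doxorubicin, both below the background maximum. Saa1 averaged 5.19 and 7.88 there. Another serum amyloid gene, Saa3, rose in WT mice at day 3, by 1.94 ± 0.26 (adjusted p = 1.0e-05). Its means of 4.45 after saline and 6.39 after doxorubicin were both below the background maximum. In WT mice at day 7 the Saa3 difference of 0.68 ± 0.26 did not pass (adjusted p = 0.44). C3 (by 1.76), Cxcl1 (by 0.55) and Cxcl5 (by 0.55) also rose in WT mice at day 3. The immunoglobulin transporter Pigr fell by 0.98 ± 0.19 (WT) and fell by 0.71 ± 0.19 (KO) at day 3. The antimicrobial lectin Reg3g differed by 3.09 ± 0.95 in WT and 3.33 ± 0.95 in KO mice at day 7 without passing (adjusted p = 0.29 and 0.085). The median difference of the list was 0.44 and 1.04 in WT and KO mice at day 3 and 0.68 and 0.34 at day 7, beside medians from -0.04 to 0.06 over all clusters.

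Of 23 cytokines and receptors that act upstream of Duox2 or Nos2, 2 rose and 2 fell in WT mice at day 3. There 2.60% of all clusters rose and 2.13% fell. In KO mice at day 3, 2 rose and 4 fell, where 5.66% of all clusters rose and 3.68% fell. At day 7, 0 passed in either genotype. Il17rc, a receptor subunit for interleukin 17, fell by 1.75 ± 0.23 in WT and fell by 1.24 ± 0.23 in KO mice. Ifngr2, a subunit of the interferon gamma receptor, fell by 0.40 ± 0.12 in WT and fell by 0.97 ± 0.12 in KO mice, and the interleukin 22 receptor Il22ra1 fell by 0.84 ± 0.24 in KO mice. Il1b (2.04 ± 0.46) and Tlr4 (0.75 ± 0.16) rose in WT mice, and Tnf (1.01 ± 0.22) and Myd88 (0.80 ± 0.20) in KO mice. Of 13 upstream transcription factors and their regulators, Irf1 fell in WT mice at day 3, Cebpd and Nfkbia rose in KO mice at day 3, and Nfkbia (1.41 ± 0.31) and Relb (0.43 ± 0.11), both of the NF-kappa-B pathway, rose in KO mice at day 7. Of that list, 0 passed in WT mice at day 7.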

How the data were processed

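Positions and symbols came from the annotation columns of the deposited comparison table, and gene models and promoters from RefSeq on GRCm38.p6. The build of the array annotation is not given in the sources used here, and each of the 7 clusters overlapped the RefSeq gene of its symbol. The authors deposited log2 signals per transcript cluster, normalized between arrays. Submitters' processing notes name RMA in Affymetrix Expression Console, whereas the study's methods describe limma with a normexp background and a quantile step, and no further normalization was made. The other deposited tables hold the averages, folds and p-values of the authors' own comparisons and were not used.

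Without 6732 control probe sets, 65956 clusters remained. A linear model with 1 mean per group was fitted to the 40 arrays in limma 3.58.1 (R 4.3.3) with empirical Bayes moderation, and p-values were adjusted over all clusters at 0.05. The number of arrays limits the precision. The fit was tested on simulated data. The 7 genes, the gene and marker lists, the rule for naming genes and the comparisons were chosen with earlier results of these data known. The named genes were the 7 genes, the 5 genes most like Duox2, Duoxa2, Nos2 and Nox1, the members of the lists that passed in WT mice at day 3 or in either genotype at day 7, and Sftpd. Genes of the lists that passed only in KO mice at day 3, and Reg3g, were named after their values were seen. The lists covered other NADPH oxidase genes, nitric oxide supply, peroxide removal, epithelial genes of the response to microbes, upstream cytokines and transcription factors, and markers of 9 cell types or gut regions. Cybc1, Ass1, Prdx1, Muc2 and Trac of these lists matched no cluster. Some genes of the lists are not reported here. Of the 7 genes, 6 have an entry among 32851 promoter windows. The alternatives were quantile normalization applied again, centring of every array on its median, array weights, the spread of array signals as a covariate, trended and robust variances, the methods' unmoderated analysis of variance, a fit to only the compared groups, tests of only bright clusters (over the median brightness) or only those with 1 symbol, the mean of a gene's clusters, and each mouse left out in turn. Figures were drawn with matplotlib.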

Additional observations from a re-analysis of the deposited data

Results flagged for a closer look

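Of 56 sets of 5 mice (7 genes in 8 groups), 3 held a mouse whose gap to the nearest other exceeded Dixon's critical value of 0.71 for the share of the range, where chance gives about 1 in 20. Mouse 144 of WT-Dox3 had a Duoxa2 signal of 14.82, while the next mouse was at 11.56. Mouse 42300 of KO-Dox7 had a Nos2 signal of 12.81, above a next value of 11.73. Mouse 102 of WT-Dox7 had a Noxo1 signal of 7.76, below a next value of 8.58, and is also the mouse of that group whose Nos2 signal lay among the saline mice.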

How the results depend on the processing

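The 7 genes in 16 comparisons gave 112 gene differences, recomputed under 10 other settings (1120 values, 30 calls changed) and with each mouse left out (1400 values, 23 calls changed). Of these 112, 18 changed sign under an alternative, none of them past the threshold and none above 0.50 in size in the reported fit. With array weights the changed values were -0.11 (Cyba, doxorubicin against saline, WT, day 3), 0.052 (Cyba, KO minus WT after doxorubicin, day 3), 0.044 (Noxa1, interaction, day 7), 0.055 (Noxo1, between the days after doxorubicin, WT), -0.035 and -0.033 (Duox2 and Duoxa2, between the days in saline KO mice) and 0.10 (Noxa1, response at day 7 minus day 3, KO). With repeated quantile normalization they were -0.0092 (Cyba, doxorubicin against saline, WT, day 3), -0.013 (Noxo1, KO minus WT in saline mice, day 7) and 0.072 (Noxa1, interaction, day 7). With arrays centred on their medians they were 0.054 (Cyba, KO minus WT after doxorubicin, day 3) and 0.01 and 0.042 (Nox1 and Cyba, KO minus WT in saline mice, day 7). With the covariate they were -0.19 (Cyba, doxorubicin against saline, WT, day 3), 0.76, 0.68 and -0.12 (Duox2, Duoxa2 and Noxo1, KO minus WT in saline mice, day 7), 0.14 (Noxa1, interaction, day 7) and -0.042 (Cyba, between the days in saline KO mice). With a mouse left out, 15 differences changed sign. Cyba ran from -0.23 to 0.21 (doxorubicin against saline, WT, day 3), -0.20 to 0.24 (KO minus WT after doxorubicin, day 3) and -0.28 to 0.10 (KO minus WT in saline mice, day 7). Noxa1 ran from -0.24 to 0.21 (interaction, day 7) and -0.36 to 0.0825 (response at day 7 minus day 3, KO). Noxo1 ran from -0.17 to 0.10 (between the days after doxorubicin, WT), -0.0345 to 0.23 (KO minus WT in saline mice, day 7), -0.0075 to 0.26 (response at day 7 minus day 3, WT) and -0.0085 to 0.26 (between the days in saline KO mice). Nox1 ran from -0.34 to 0.17 (KO minus WT in saline mice, day 7) and -0.35 to 0.12 (between the days in saline WT mice). Between the days in saline KO mice Duox2 ran from -0.51 to 0.40, Duoxa2 from -0.60 to 0.43 and Nos2 from -0.10 to 0.92, and Duoxa2 ran from -0.0875 to 1.05 (KO minus WT after doxorubicin, day 3). The comparisons between genotypes, those between the days in saline mice, the interactions of genotype with doxorubicin and the response at day 7 minus that at day 3 in KO mice had 0 of the 7 genes past the threshold under each. In WT mice at day 3, 2 genes passed, with 1 for only the compared groups or the spread of array signals as a covariate (Duox2 lost), 3 for only bright clusters, only clusters of 1 symbol, array weights or a mean over a gene's clusters (Duoxa2 gained), and 0 to 3 with a mouse left out. In KO mice at day 7, 1 gene passed, and 4 passed with only the compared groups or only bright clusters, 3 with only clusters of 1 symbol or a mean over a gene's clusters, 5 with array weights or the covariate, and 1 to 3 with a mouse left out. In WT mice at day 7, 0 passed, and 0 to 1 with a mouse left out. Between the days after doxorubicin, 2 passed in WT mice, with 1 for only the compared groups and 1 to 2 with a mouse left out, and 1 passed in KO mice, with 3 for only the compared groups, 2 for array weights or the covariate, and 0 to 1 with a mouse left out. For the response at day 7 minus that at day 3 in WT mice, 0 passed, with 1 for only bright clusters and 0 to 1 with a mouse left out. Counts over all clusters moved more: 3115 in WT mice at day 3 (902 to 3491 over the settings), 12 in WT mice at day 7 (0 to 217), 607 in KO mice at day 7 (389 to 1794), 2000 between the days in WT mice after doxorubicin (508 to 2466), 555 for the response at day 7 minus that at day 3 in WT mice (248 to 795), and between genotypes 17 (3 to 18) and 51 (2 to 1846) in saline mice at days 3 and 7 and 7 (1 to 12) and 4 (2 to 7) after doxorubicin. A fit of only the compared groups uses fewer mice, and the filters test fewer clusters; the cause of the other shifts was not tested. No paired analysis was possible because the mouse numbers are not shared between groups. Signals near or below 6.99 (Nox1, Nos2 in many saline mice, and listed genes such as Arg1, Tlr4 and Saa2) limit what differences can be measured there.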

Other observations

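Markers of the crypt base fell in WT mice at day 3 for 3 of 4 genes. Lgr5 fell by 1.25 ± 0.25, Olfm4 fell by 2.46 ± 0.60 and Smoc2 fell by 0.46 ± 0.13. In KO mice Lgr5 fell by 0.89 ± 0.25 at day 3 and fell by 1.11 ± 0.25 at day 7. The mean of these 4 markers correlated with Duox2 at 0.600 and with Duoxa2 at 0.619 over the 40 mice. Of 4 markers of the villus tip and 3 of T cells, 0 passed in any of the 4 comparisons of doxorubicin with saline. Of 4 goblet cell markers, Clca1 rose by 2.59 ± 0.47 in KO mice at day 3. Of 9 epithelial markers, 1 rose and 2 fell in WT mice at day 3 (Krt18 rose by 1.04, Vil1 fell by 0.60 and Cdx2 fell by 0.68), 1 rose and 1 fell in KO mice at day 3 (Krt19 and Cldn7), and Krt18 fell by 1.23 ± 0.31 in KO mice at day 7.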
